A study of Laodelphax striatellus with 6 samples.

Results

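The 15 transcripts described here were chosen from 59004 assembled genes of the small brown planthopper, Laodelphax striatellus, by words of innate immunity in the NR protein description deposited beside each gene. The words cover peptidoglycan recognition, glucan-binding and lectin proteins, the Toll pathway, serpins, the phenoloxidase cascade and antimicrobial effectors. By role, the 15 are a peptidoglycan-recognition protein, a glucan-binding protein, a C-type lectin, a Spaetzle-processing enzyme, 6 rows named Dorsal, a serpin, a phenoloxidase-activating factor, a defensin, a lysozyme and 1 row that is not an immune gene. That last row is ubiquitin-conjugating enzyme E2 W (TRINITY_DN25752_c0_g1), matched only because its best hit is in the fruit fly Bactrocera dorsalis. None of the 15 is described as a Toll receptor, the Spaetzle ligand itself, MyD88, Pelle, Relish, phenoloxidase itself or hemocytin. Words for each of these were among those searched in all descriptions, so no gene described in those words was found. A further 17931 of the 25802 described genes are named only as hypothetical or uncharacterized, so immune genes without an informative name lie outside the choice.

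Poly(A) RNA of whole wild-type bodies was sequenced in 3 libraries labelled control and 3 libraries labelled as treated with beta-asarone, a phenylpropanoid of Acorus plants. What the control insects received, the dose, the exposure time, the sex and the stage are not given in the labels. The labels do not say whether replicates are separate insects or cultures. The p-values therefore speak for the scatter of these libraries, part or all of which may be technical. Expression is given in TPM, a share of each library that corrects for transcript length and keeps no record of sequencing depth. The reads behind each value are therefore unknown, and counting intervals cannot be given.

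In insects, the Toll pathway starts with recognition of microbial surfaces, such as peptidoglycan of the bacterial wall or fungal glucans. A cascade of serine proteases then cleaves Spaetzle, the ligand of the Toll receptor, and the receptor's signal releases the NF-kappa-B factor Dorsal to the nucleus, where antimicrobial peptide genes are switched on. A related protease cascade activates phenoloxidase, the enzyme of melanization, and serpins restrain both cascades. Much of this work is known from Drosophila. Dorsal also patterns the embryo there, and the fat body, blood cells and gut are the main sites of expression. In whole bodies, fewer cells of a type and less RNA per cell cannot be told apart.

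Of the 15 transcripts, 11 averaged 1 TPM or more across the 6 libraries and were tested, and all 11 have their best hit in a planthopper (L. striatellus, Nilaparvata lugens or Sogatella furcifera). The other 4 had means of 0.150 to 0.870 TPM. None of the 11 passed the threshold, a Benjamini-Hochberg adjusted limma p under 0.05 over all 24816 tested genes, against 0.00403% of all tested genes. Adjusted p-values of the 11 were 0.98 to 0.996. At an unadjusted limma p under 0.05 there were 2 of 11, defensin B and the Dorsal row TRINITY_DN14113_c0_g1, both higher in asarone libraries, against 3.47% of all tested genes in either direction and 1.99% on the higher side. The same 2 transcripts had groups that did not overlap, which 8.66% of all tested genes had, and 4.53% on the higher side. A count of 2 among 11 was read as no result about the members as a group. Values were higher in asarone libraries for 8 members and lower for 3, and the median log2 change was 0.097. Over all tested genes 62.8% were higher, with a median log2 change of 0.084. The split of the 11 became 6 higher and 5 lower after median-of-ratios scaling and after quantile normalization, and 7 and 4 after trimmed-mean scaling. The share of all tested genes that were higher moved as well, to 56.8% with median-of-ratios, 53.0% with quantile and 58.2% with trimmed-mean scaling.

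**Figure D1:**
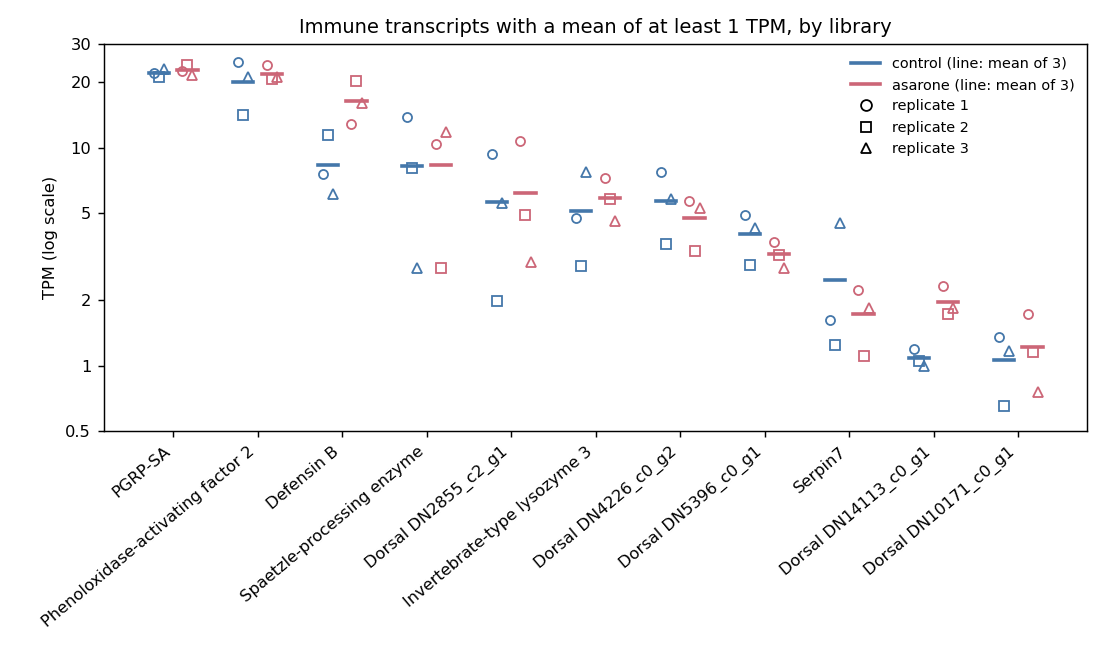
TPM (log scale) of the 11 tested immune transcripts in each of the 6 libraries, ordered by mean level, with the replicate number shown by the marker and the mean of 3 libraries by a line. PGRP-SA lies between 21.09 and 24.03 TPM in all libraries, and defensin B and the Dorsal row DN14113_c0_g1 are the 2 transcripts whose groups do not overlap.

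Recognition was represented above 1 TPM by peptidoglycan-recognition protein SA, PGRP-SA (TRINITY_DN7684_c0_g1), which in Drosophila binds bacterial peptidoglycan and starts Toll signalling. It was the most abundant of the 15 transcripts. Its level was 21.98, 21.09 and 22.95 TPM in control libraries 1 to 3 and 22.60, 24.03 and 21.69 TPM in asarone libraries 1 to 3. The highest library was 1.14 times the lowest, and the groups overlapped. The group means were 22.0 ± 0.930 TPM (SD, n = 3) in control libraries and 22.8 ± 1.18 TPM (SD, n = 3) in asarone libraries. The log2 change was 0.047 with a 95% limma interval of -0.24 to 0.34, which is a range of 0.845-fold to 1.26-fold, and it became -0.010 after median-of-ratios scaling and 0.0014 with trimmed-mean scaling. The SD of its log2 values over the 6 libraries, 0.0637, was smaller than in all but 0.665% of the tested genes. This steadiness belongs to the TPM scale: after median-of-ratios scaling the SD was 0.150, larger than in 16.8% of tested genes, and the highest library was 1.33 times the lowest. The other recognition proteins were near the lower limit of the table. The glucan-binding protein (TRINITY_DN23810_c0_g2), whose best hit is the sponge Oopsacas minuta, was at 0.26, 0.27 and 0.68 TPM in the controls and was listed at 0 and at 0.66 and 0.15 TPM in asarone libraries. The C-type lectin (TRINITY_DN148_c0_g2), a sugar-binding protein with its best hit in a leafhopper, was listed at 0 in 5 libraries and at 0.90 TPM in asarone replicate 3.

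The step before the Toll receptor was represented by the Spaetzle-processing enzyme (TRINITY_DN2679_c0_g1), the serine protease that in Drosophila cleaves the Spaetzle precursor. It was at 13.92, 8.05 and 2.82 TPM in control libraries 1 to 3 and at 10.43, 2.81 and 11.78 TPM in asarone libraries 1 to 3. Each group held 1 library near 2.8 TPM and 2 libraries at or above 8.05 TPM, so the groups overlapped over nearly their whole range. The group means were 8.26 ± 5.55 and 8.34 ± 4.84 TPM (SD, n = 3), and the log2 change was 0.037 with a 95% limma interval of -1.53 to 1.61. This was the widest interval among the 11 transcripts, and its direction turned under 6 of 16 alternatives. Its SD of log2 values, 0.877, exceeded that of 90.2% of tested genes, and 90.5% after median-of-ratios scaling. The 2 low libraries, control replicate 3 and asarone replicate 2, do not share a group or a number. Serine protease snake-6 (TRINITY_DN3381_c0_g1), named for a protease of the cascade that acts upstream of Spaetzle in the Drosophila embryo, was at 15.52 TPM in control replicate 3 and 11.09 TPM in asarone replicate 2, and it was lowest, 4.07 TPM, in control replicate 1.

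Dorsal was spread over 6 assembled rows. Rows TRINITY_DN4226_c0_g2, TRINITY_DN5396_c0_g1 and TRINITY_DN30523_c0_g1 have their best hit in the Dorsal protein of L. striatellus. Rows TRINITY_DN2855_c2_g1, TRINITY_DN14113_c0_g1 and TRINITY_DN10171_c0_g1 have theirs in S. furcifera, the white-backed planthopper. Pieces of a single gene, isoforms and separate genes cannot be told apart here, and reads may be shared between rows, so the separate values are uncertain. Together the 6 rows summed to 26.03, 10.19 and 19.43 TPM in control libraries 1 to 3 and to 24.21, 14.35 and 13.71 TPM in asarone libraries 1 to 3. The highest and the lowest sums were both in control libraries, and the treated libraries lay between them. The group means of the sum were 18.6 ± 7.96 and 17.4 ± 5.89 TPM (SD, n = 3; p = 0.9 in an exact two-sided permutation test, adjusted p = 0.9 over 4 such tests). The smallest p that 3 against 3 libraries allow is 0.1.

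**Figure D2:**
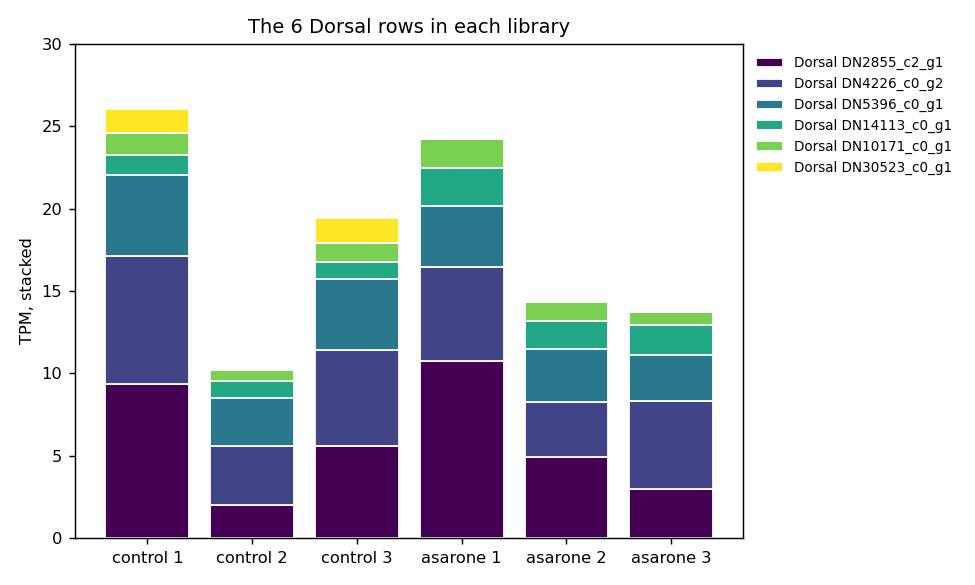
Stacked TPM of the 6 Dorsal rows in each of the 6 libraries. The sum is lowest in control replicate 2 at 10.19 TPM and highest in control replicate 1 at 26.03 TPM, and the topmost row, DN30523_c0_g1, appears in control replicates 1 and 3 only.

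The rows did not share 1 profile. Row TRINITY_DN14113_c0_g1 was at 1.19, 1.05 and 1.00 TPM in the controls and at 2.32, 1.72 and 1.84 TPM in asarone libraries. Every treated library was above every control library, at a level close to the filter. The means were 1.08 ± 0.0985 and 1.96 ± 0.317 TPM (SD, n = 3), a ratio of 1.81. The log2 change was 0.50 (SE 0.17, limma adjusted p = 0.98), and the unadjusted p of 0.023 belongs to a level under 0.05 that 3.47% of all tested genes reached. The log2 change was 0.42 to 0.80 over 14 alternatives, the highest with a pseudocount of 0.1. Set against the summed other 5 Dorsal rows on the log2(TPM + 1) scale, this row was at -3.56, -2.31 and -3.28 in the controls and at -2.79, -2.33 and -2.18 in asarone libraries. These groups overlapped through control replicate 2 (p = 0.3 in an exact two-sided permutation test, adjusted p = 0.533 over 4 such tests). With a smallest possible p of 0.1, and with the row singled out for its separation, this test cannot decide whether the row differed from the other Dorsal rows.

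Row TRINITY_DN2855_c2_g1 varied most among the Dorsal rows, at 9.37, 1.98 and 5.59 TPM in the controls and at 10.77, 4.90 and 3.00 TPM in asarone libraries. The replicates numbered 1 were the highest of both groups, and the groups overlapped. Row TRINITY_DN4226_c0_g2 was at 7.76, 3.61 and 5.83 TPM in the controls and at 5.68, 3.36 and 5.30 TPM in asarone libraries. The replicates numbered 2 were the lowest of both groups here. Row TRINITY_DN5396_c0_g1 was at 4.92, 2.90 and 4.31 TPM in the controls and at 3.71, 3.22 and 2.81 TPM in asarone libraries. Its groups overlapped only through control replicate 2, and after median-of-ratios scaling every treated library was below every control library, with a log2 change of -0.27 and an unadjusted limma p of 0.0803. The log2 change of TRINITY_DN5396_c0_g1 was below 0 as reported, at -0.23, and in all 14 alternatives that gave it a value. Its unadjusted limma p, 0.309 as reported, was under 0.05 in 2 of them. It was 0.037 after quantile normalization (log2 change -0.33), where 998 of all 24816 tested genes were under 0.05. Without control replicate 2 it was 0.0485 (log2 change -0.41), where 1054 of 25645 tested genes were under 0.05. Its adjusted limma p-values were 0.836 to 0.9999 over the 14. The ratio of TRINITY_DN4226_c0_g2 to TRINITY_DN5396_c0_g1, both with the L. striatellus protein as best hit, ran from 1.04 to 1.89 over the 6 libraries. That of TRINITY_DN2855_c2_g1 to TRINITY_DN5396_c0_g1, with best hits in different species, ran from 0.683 to 2.90. Row TRINITY_DN30523_c0_g1 was at 1.43 and 1.53 TPM in control replicates 1 and 3 and was listed at 0 in the other 4 libraries. Row TRINITY_DN10171_c0_g1 was between 0.65 and 1.73 TPM in all libraries, just above the filter, with overlapping groups.

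Summed by best hit, the 3 L. striatellus rows were at 10.8 ± 3.88 TPM in control libraries and 8.03 ± 1.41 TPM in asarone libraries (SD, n = 3). Their log2 change was -0.33, with a 95% limma interval of -1.03 to 0.36. The 3 S. furcifera rows were at 7.79 ± 4.12 and 9.40 ± 4.82 TPM (SD, n = 3), a log2 change of 0.26 with an interval of -0.86 to 1.38. Both intervals include 0 and they overlap widely. This summing was chosen after the values were seen.

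Serpin7 (TRINITY_DN12609_c0_g1) belongs to the serpins, suicide inhibitors that trap serine proteases, and the protease it inhibits in this insect is not given. It was at 1.62, 1.24 and 4.53 TPM in the controls and at 2.23, 1.11 and 1.84 TPM in asarone libraries. Control replicate 3 was highest, and the other 5 libraries were at 2.23 TPM or less, so the groups overlapped. The log2 change was -0.25 with a 95% limma interval of -1.17 to 0.67, and it turned to 0.15 without control replicate 3. The 2 libraries low in the Spaetzle-processing enzyme lay at opposite ends for serpin7, control replicate 3 highest at 4.53 TPM and asarone replicate 2 lowest at 1.11 TPM.

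Phenoloxidase-activating factor 2 (TRINITY_DN458_c0_g1), known from beetles as a clip-domain protease homologue needed for phenoloxidase activation, was the second most abundant transcript. It was at 24.91, 14.22 and 21.24 TPM in the controls and at 24.04, 20.74 and 21.09 TPM in asarone libraries. Control replicate 2 stood below the other 5 libraries, and the groups overlapped. Means were 20.1 ± 5.43 and 22.0 ± 1.81 TPM (SD, n = 3), with a log2 change of 0.15 and a 95% limma interval of -0.38 to 0.68. After median-of-ratios scaling the highest library was 1.26 times the lowest, against 1.75 times on the TPM scale. The log2 change without control replicate 2 was -0.067.

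Among the effectors, defensin B (TRINITY_DN5531_c0_g1), a cysteine-rich peptide of a family that mainly kills Gram-positive bacteria, showed the largest difference of the 11 transcripts. It was at 7.57, 11.42 and 6.17 TPM in control libraries 1 to 3 and at 12.86, 20.27 and 16.01 TPM in asarone libraries 1 to 3. The lowest treated library was above the highest control library, by 12.86 against 11.42 TPM. The ratio of the group means was 1.95, and the log2 change was 0.91 with a 95% limma interval of 0.27 to 1.54. With an unadjusted limma p of 0.0125 and an adjusted p of 0.98, it did not pass the threshold. An exact two-sided permutation test of its log2 values gave p = 0.1, the smallest this design allows. Any groups without overlap give this value, so the test only restates the separation. The separation of the groups depended on the scaling. After median-of-ratios scaling control replicate 2 was at 14.3, above asarone replicate 1 at 11.6, and the unadjusted limma p was 0.0538. The log2 change stayed above 0 under all 16 alternatives, between 0.73 without control replicate 3 and 1.13 without control replicate 2.

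Lysozyme was represented by invertebrate-type lysozyme 3 (TRINITY_DN2619_c1_g1), of the enzymes that cut bacterial wall peptidoglycan. It was at 4.77, 2.88 and 7.75 TPM in the controls and at 7.24, 5.83 and 4.64 TPM in asarone libraries. The lowest and the highest libraries were both controls, so the groups overlapped. The log2 change was 0.23 with a 95% limma interval of -0.55 to 1.02, and it was -0.059 without control replicate 2. The difference between the effectors cannot be decided by a test whose smallest p is 0.1. Defensin B minus lysozyme on the log2(TPM + 1) scale was 0.654 ± 0.986 in control libraries and 1.33 ± 0.5002 in asarone libraries (SD, n = 3; p = 0.4 in an exact two-sided permutation test, adjusted p = 0.533 over 4 such tests). Defensin B minus PGRP-SA was -1.33 ± 0.462 and -0.473 ± 0.271 (SD, n = 3; p = 0.1 in an exact two-sided permutation test, adjusted p = 0.4 over 4 such tests), with every treated library above every control library. That p is fixed by this separation, and defensin B itself had groups that did not overlap.

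**Figure D3:**
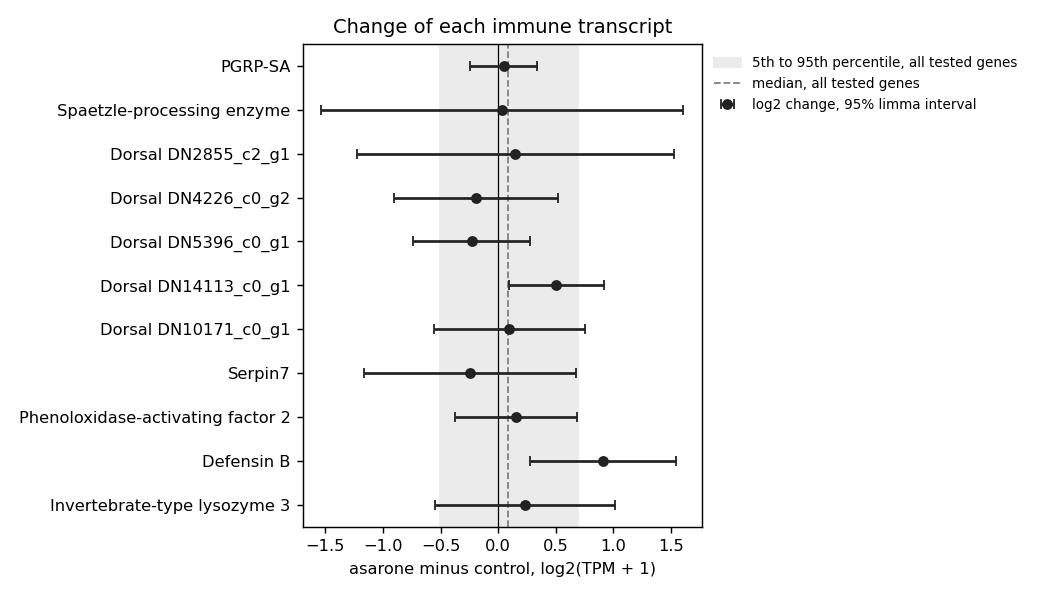
Log2 change (asarone minus control, log2 of TPM + 1) of the 11 tested immune transcripts with 95% limma intervals, ordered by role. The shaded band spans the 5th to 95th percentile of all tested genes, -0.51 to 0.69. The intervals of 2 transcripts exclude 0, defensin B at 0.91 and the Dorsal row DN14113_c0_g1 at 0.50, without adjustment for the number of genes.

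The intervals show how large a change these libraries could have hidden. For 6 of the 11 transcripts the 95% limma interval lay within 1 log2 unit on either side of 0: PGRP-SA, phenoloxidase-activating factor 2 and the Dorsal rows TRINITY_DN4226_c0_g2, TRINITY_DN5396_c0_g1, TRINITY_DN14113_c0_g1 and TRINITY_DN10171_c0_g1. For the other 5 the interval reached past 1 log2 unit on at least 1 side. On the log2(TPM + 1) scale the change of transcripts near 1 TPM is understated. By level the tested transcripts ran from the 7.58th to the 89.8th percentile of the tested genes.

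Control replicate 2 stood apart in the whole table, and this touched the members. Its size factor by median of ratios was 0.799, while the other 5 libraries had 0.979 to 1.11, and it held the lowest value of 48.7% of all tested genes. Among the 11 members it was lowest for 5, which were PGRP-SA, phenoloxidase-activating factor 2, the lysozyme and the Dorsal rows TRINITY_DN2855_c2_g1 and TRINITY_DN10171_c0_g1. After scaling it was lowest for 3 of the 11 and for 29.6% of all tested genes. Without this library 4 members had a log2 change above 0 and 7 below, and the share of all tested genes above 0 fell to 43.3%. Without asarone replicate 1 the members' split was 5 and 6, with 56.2% of all tested genes above 0.

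**Figure D4:**
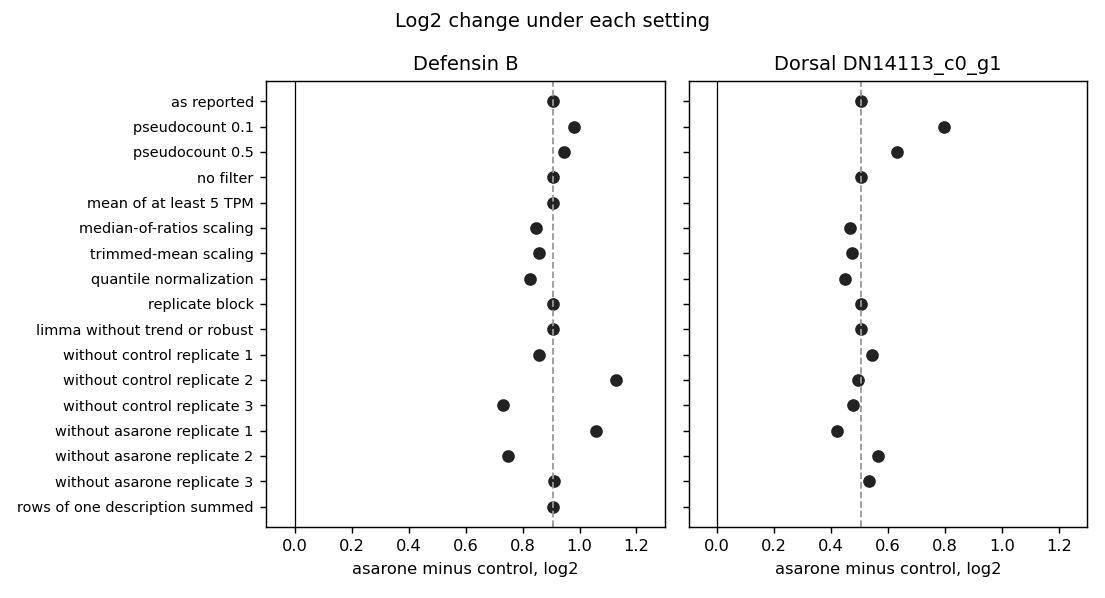
Log2 change of defensin B and of the Dorsal row DN14113_c0_g1 as reported (dashed line) and under each alternative. Defensin B lies between 0.73 and 1.13, and the Dorsal row lies between 0.42 and 0.80.

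Other genes were taken from 5 lists of description words for immune pathways. The lists covered Toll and IMD signalling, clip and cascade proteases, JAK/STAT, thioester and scavenger receptors, and oxidative burst and nodulation. No row matched the JAK/STAT words. The other 4 lists held 28 rows, among them Dscam rows (mostly named Dscam2), CD109 and phospholipase rows and a serine proteinase stubble row. These were matched by description words only, and a part of each in defence was not tested. Of the 28 rows 13 were tested, 11 higher and 2 lower, where 62.8% of all tested genes were higher. This split was not tested. In limma 0 passed the threshold in either direction, against 0.00403% of all tested genes. At an unadjusted limma p under 0.05 there were 0, against 3.47% of all tested genes. Toll-interacting protein (TRINITY_DN229_c0_g1), a brake on Toll-like receptor signalling in mammals, was at 28.73, 18.61 and 26.67 TPM in the controls and at 28.62, 27.77 and 26.18 TPM in asarone libraries. Control replicate 2 was again the low library. The kinase IKK1 (TRINITY_DN7449_c1_g1), of the complex that activates NF-kappa-B factors, was between 2.75 and 3.79 TPM in all 6 libraries. Dual oxidase (TRINITY_DN4912_c0_g1), which makes reactive oxygen species at the gut surface in Drosophila, was at 7.75, 2.78 and 4.46 TPM in the controls and at 5.68, 3.23 and 4.40 TPM in asarone libraries. The groups overlapped. Another tested dual oxidase row (TRINITY_DN11213_c0_g1) was at 1.81, 0 and 0 TPM in the controls and at 1.43, 0.36 and 2.56 TPM in asarone libraries. Its log2 change was 0.69 with overlapping groups (limma adjusted p = 0.98). A further dual oxidase row (TRINITY_DN37156_c0_g1) averaged under 1 TPM and was not tested. A dual oxidase maturation factor (TRINITY_DN8462_c0_g1) was at 20.46 TPM in asarone replicate 1 and at 3.62 to 8.21 TPM in the other 5 libraries.

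Marker lists of the tissues that make or could dilute these transcripts were described beside them. The fat body list held 1 row, transferrin (TRINITY_DN6152_c1_g1), an iron-binding protein, at 286.97 to 354.29 TPM in control libraries and 326.56 to 394.87 TPM in asarone libraries. Vitellogenin, apolipophorin and hexamerin were planned words of this list, but the list held no row of them. The 9 rows of the hemocyte list, integrins and peroxidasins, summed to 29.18 to 38.10 TPM in control libraries and 28.55 to 31.77 TPM in asarone libraries. Of its 7 tested rows 4 were higher and 3 lower. The gut list of 6 rows, cathepsin B, maltases and trypsins, summed to 125.84 to 130.33 TPM and 125.66 to 127.21 TPM. The salivary gland list, mostly rows named mucin-like protein, was lower in asarone libraries for 25 of 29 tested rows, none past the threshold, while 37.2% of all tested genes were lower. The lower rows were every tested mucin-like row and a carbonic anhydrase. The 4 higher rows were all named probable salivary secreted peptide, so the list did not move as a whole. Whether the mucin-like rows are pieces of a single gene was not tested, so the count of 25 may not be of separate genes. At an unadjusted limma p under 0.05 the list held 8 lower rows and 0 higher, against 1.47% of all tested genes on the lower side. That count of 8 was 0 after median-of-ratios and after trimmed-mean scaling and 7 after quantile normalization, with 25 of 29 lower in each. The 32 rows of the salivary list summed to 25248.5 to 32110.5 TPM in control libraries and 19584.9 to 25090 TPM in asarone libraries. On the TPM scale these ranges were parted only by 25248.5 against 25090 TPM. The lowest control sum was in control replicate 3, with a size factor of 1.06, and the highest treated sum in asarone replicate 2, with 0.983. Divided by these factors the treated sum is the larger, so the ranges overlap after median-of-ratios scaling. The cuticle list was lower for 34 of 43 tested rows, none past the threshold. At an unadjusted limma p under 0.05 it held 3 lower rows and 1 higher. Of all tested genes, 1.47% reached that level on the lower side and 1.99% on the higher side. Under each scaling tried for the salivary list, the cuticle list held 4 lower rows and 1 higher at that level, with 34 or 35 of 43 lower. Its 47 rows summed to 11587.2 to 17936.5 TPM and 6866.66 to 18490 TPM. TPM is a share of the library, and the part of these lists in the values of defensin B or of any other member was not tested.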

How the data were processed

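Libraries were strand-marked poly(A) RNA, per the labels' protocols. Tools in the submitters' processing notes are StringTie 1.3.4d, HISAT2 2.0.4, cutadapt 1.9, DESeq2 and edgeR, with no role given. For the quantifier and the genome build, none is given in the sources used here. The TPM values were deposited by the authors to 2 decimals in a table named for FPKM. All libraries sum to a common total within rounding, a property of TPM and not of FPKM, so they were read as TPM. The authors' group means were not used.

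Libraries were grouped by title. Genes averaging 1 TPM or more were tested with limma 3.58.1 in R 4.3.3 (trend, robust) on log2(TPM + 1), two-sided, on all 24816 such genes together. Scalings were median-of-ratios factors, a trimmed mean of log ratios (30% of ratios and 5% of levels trimmed on each side) and quantile normalization. Single values were compared by exact permutation over libraries (scipy 1.17.1). The procedure was tested on 10 simulated data sets, each with 200 genes changed, all of them at about 5 TPM or more. At the adjusted threshold it called 19.8% of changes of 1 log2 unit and 65% of changes of 2 log2 units. Of the unchanged genes it called 0.0162%. Most changes of 1 log2 unit would therefore be missed at this threshold.

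Members and lists were chosen with earlier results of these data known. Unrelated text matches (thioesterases, acetyl-transferring enzymes, the vitellogenin receptor, an inter-alpha-trypsin inhibitor and others) were taken out of the lists after they were seen, while rows with a best hit outside insects were kept. By rule, the genes named are the most abundant and the most variable of each role, all of the Toll pathway, and those with unadjusted p under 0.05 or groups not overlapping. The lysozyme, the members under 1 TPM and the genes named from the lists were added after their values were seen. Alternatives were other pseudocounts, filters and scalings, a replicate block, plain limma, the omission of each library in turn and, chosen after seeing the data, the sum of rows of one description.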

Additional observations from a re-analysis of the deposited data

How the results depend on the processing

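No member passed the adjusted threshold under any alternative run. Of all tested genes, 1 passed it as reported, and the number was 0 for each of these: pseudocount 0.1, no filter, a filter at 5 TPM, the 3 other scalings (median-of-ratios, trimmed-mean, quantile), the replicate block, and without each single library (0 to 0). On leaving out a library the number of members higher in asarone libraries, 8 of 11, ranged from 4 to 9, and their median log2 change from -0.066 to 0.23. Over the same omissions the share of all tested genes that were higher ranged from 43.3% to 68.8%, and their median log2 change from -0.033 to 0.18. The Spaetzle-processing enzyme turned in log2 change to -0.022 by median-of-ratios, -0.011 by trimmed-mean and -0.054 by quantile scaling, and ranged from -0.50 to 0.59 on leaving out a library. PGRP-SA turned to -0.010 by median-of-ratios and -0.0024 by quantile scaling. On leaving out a library the range was -0.067 to 0.32 for phenoloxidase-activating factor 2, -0.059 to 0.53 for the lysozyme and -0.50 to 0.15 for serpin7. For the Dorsal rows it was -0.34 to 0.56 (TRINITY_DN2855_c2_g1), -0.066 to 0.25 (TRINITY_DN10171_c0_g1), -0.44 to 0.018 (TRINITY_DN4226_c0_g2) and -0.41 to -0.11 (TRINITY_DN5396_c0_g1). The signs turned without control replicate 2 or asarone replicate 1 for TRINITY_DN2855_c2_g1 and TRINITY_DN10171_c0_g1, without control replicate 2 for the lysozyme and the phenoloxidase factor, without control replicate 1 for TRINITY_DN4226_c0_g2, and without control replicate 3 for serpin7. The cause was not tested. The filter at 5 TPM left 7 members. Same-numbered libraries deviated from their group means with r = 0.157, 0.0814 and -0.035 for numbers 1, 2 and 3 across tested genes, so the numbers were not taken as pairs. With the replicate block no member's call changed. Depth cannot be recovered from TPM, so the counting error of transcripts near 1 TPM is unknown.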

Other observations

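Antiviral defence in insects rests largely on RNA interference, in which Dicer-2 cuts viral double-stranded RNA. Of 7 rows with the words Dicer or argonaute 3 were tested. These were Dicer 2, an argonaute-like row and an argonaute 1 row with its best hit in Nematostella vectensis, outside insects. An untested row was named dicer-1, so the list is wider than the Dicer-2 pathway. In limma 0 passed the threshold, with 0 at an unadjusted limma p under 0.05, against 3.47% of all tested genes. Dicer 2 (TRINITY_DN2724_c3_g1) was at 7.10, 4.77 and 6.13 TPM in the controls and at 6.73, 6.47 and 6.61 TPM in asarone libraries. Control replicate 2 was the low library, and the treated values lay inside the control range. All 3 rows described as virus proteins were named Iflavirus-like, after a family of RNA viruses of insects, with a best hit recorded in the wax moth Galleria mellonella. The most abundant, TRINITY_DN46668_c0_g1, was at 631.24, 757.97 and 618.00 TPM in the controls and at 629.26, 556.23 and 602.91 TPM in asarone libraries. It was at 556.23 TPM or more in every library, above every immune transcript described here. The summed level of the 3 rows was 1145.25 to 1390.33 TPM in control libraries and 1043.06 to 1201.56 TPM in asarone libraries, ranges that overlap. The sum is set by the 2 abundant rows. The third, TRINITY_DN32958_c0_g1, had groups that did not overlap on the TPM scale and lay in the other direction. It was at 8.03, 7.75 and 8.55 TPM in the controls and at 9.69, 11.30 and 8.94 TPM in asarone libraries (limma adjusted p = 0.98). Of all tested genes 8.66% had groups that did not overlap, and 4.53% on the higher side. Control replicate 2, at 7.75 TPM, had a size factor of 0.799, against 1.10 for asarone replicate 1 and 0.979 for asarone replicate 3. Divided by these factors, control replicate 2 lies above both, so the groups overlap after median-of-ratios scaling. Whether these rows are a virus or an inserted viral sequence was not tested.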
